A study of Rattus norvegicus with 6 samples.

Results

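The genes examined here encode the mitochondrial carriers of the Slc25 family, together with the uncoupling proteins Ucp1, Ucp2 and Ucp3, which belong to the same family. Members were taken by name, as every rat gene whose symbol starts with Slc25a plus the 3 uncoupling proteins. This choice was made with earlier results of these data known. The array carried named probes for 41 such genes, out of 15277 named genes in all. Of the 41, 38 had a probe well above background on at least 3 of the 6 arrays and were tested, among 30709 tested features. Ucp3, Slc25a41 and Slc25a53 had no probe well above background on any array and were not tested. A further 15 protein-coding family genes in the naming table, Slc25a12, Slc25a13, Slc25a36 and Slc25a40 among them, matched no probe by accession and were not analysed here.

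The samples were total RNA of the renal cortex from 6 male Sprague-Dawley rats, bought at 5 weeks of age and dosed for 4 weeks. The 3 control animals received corn oil, the vehicle, and the other 3 were given o-anthranilic acid, with a daily dose of 1000 mg/kg. The compound is a benzoic acid with an amino group in the ortho position, and it also arises in the body when tryptophan is broken down. Each animal was measured on 1 single-colour Agilent array.

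Carriers of this family sit mostly in the inner mitochondrial membrane and exchange one solute for another across it. They let ADP, phosphate and fuel acids in, let ATP and biosynthetic intermediates out, and bring in cofactors, amino acids and iron. The proximal tubule, which makes up most of the renal cortex, is packed with mitochondria that power sodium reabsorption and also run ammonia and glucose production, so it draws on many of these carriers. Uncoupling proteins let protons or anions leak across the same membrane.

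All signals below are log2 values relative to the array's own 75th percentile, and a log2 fold change is the treated mean minus the vehicle mean. Between 63.6% and 69.3% of probes on an array were well above background. Of the 7 proximal tubule markers, 7 were measured, and their summed signal was 1480 to 1570 times the 75th percentile in vehicle animals and 1500 to 1580 times in treated animals. Podocyte markers summed to 27.8 to 31.3 and 24.5 to 32.2, macrophage markers to 82.1 to 101 and 69.7 to 91.3, and skeletal muscle markers to 0.640 to 0.716 and 0.587 to 0.634. Umod, of the thick ascending limb, was at 281 to 481 and 334 to 426, and the collecting duct markers were at 117 to 138 and 98.5 to 122. Treated replicate 2 was alone on a second slide, so slide and this animal cannot be told apart.

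No carrier gene passed the test. limma with Benjamini-Hochberg adjustment over all features called 0 of the 38 carriers, and the smallest adjusted p among them was 0.479, for Slc25a29. The background was the same, since 0% of the 30709 features were called. At an unadjusted p under 0.05 there was 1 carrier, Slc25a29, or 2.63% of the 38, where 8.30% of all features reached it. That carrier was lower in treated animals, a direction in which 4.84% of all features reached the same level.

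The carriers differed little between the groups in size. Their log2 fold changes had a median of -0.03 and a median absolute size of 0.10, against -0.01 and 0.11 over all features. They ran from -0.65 for Slc25a25 to 0.49 for Ucp1. Of the 38, 22 were below 0, or 57.9%, beside 51.9% of all features. The 95% interval of the difference lay wholly between -0.5 and 0.5 for 30 carriers, or 78.9%, so for these genes a larger difference in either direction lay outside the interval. The same held for 64.9% of all features. In whole tissue, fewer cells of a type and less RNA per cell cannot be told apart.

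**Figure D1:**
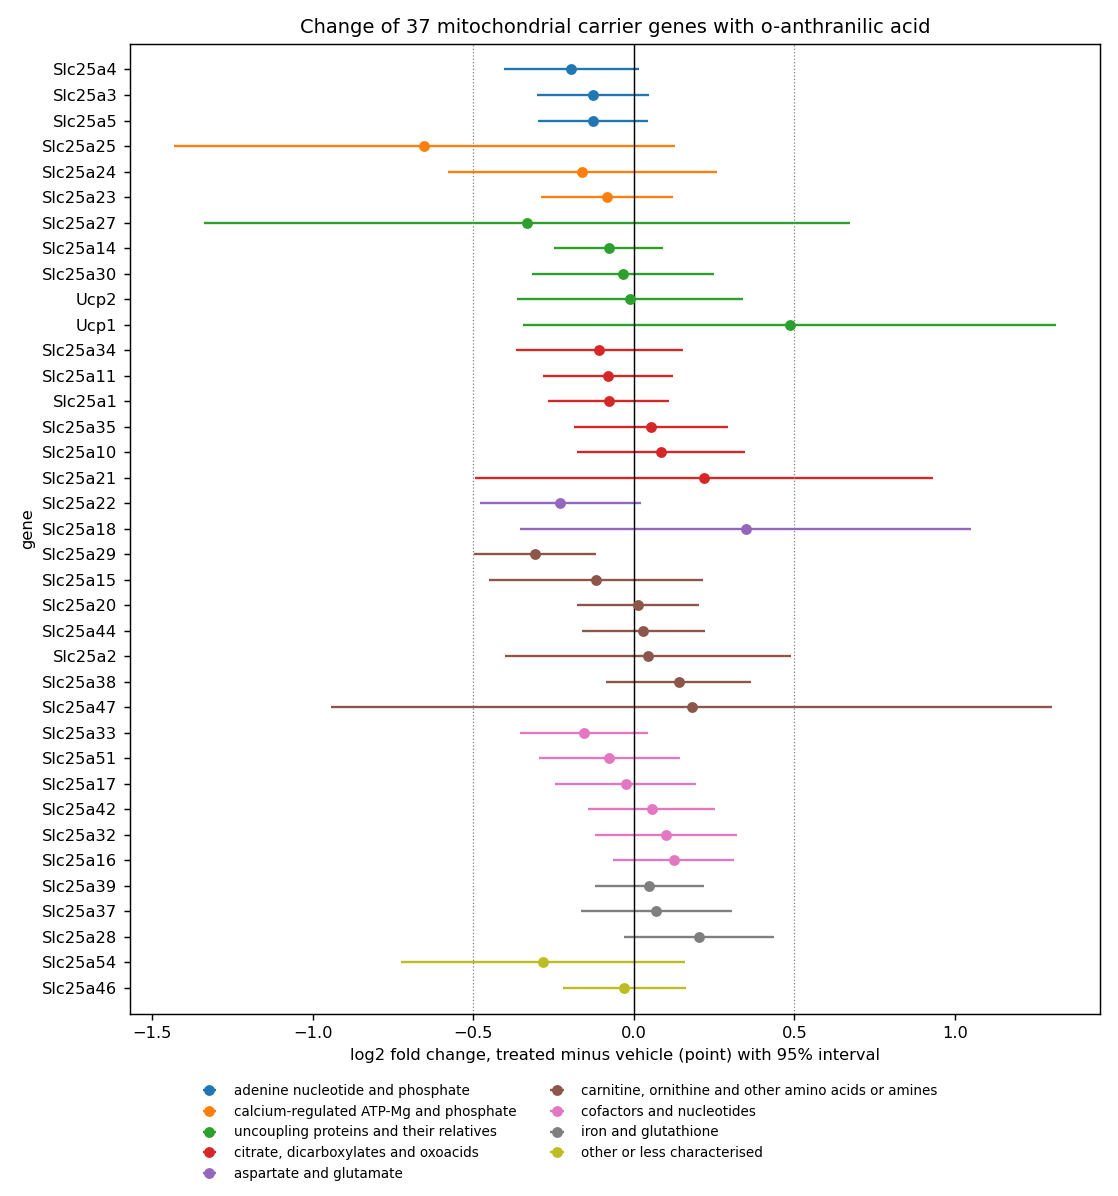
Log2 fold change of 37 of the 38 tested carriers (point, treated minus vehicle, 3 animals per group) with its 95% interval from limma, coloured by transported solute; dotted lines mark -0.5 and 0.5. The interval of Slc25a29 alone lies wholly on one side of 0, and the widest intervals belong to Slc25a47, Slc25a27 and Ucp1.

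The groups did not overlap for 5 carriers, all of them lower in treated animals. They were Slc25a29, Slc25a22, Slc25a33, Slc25a5 and Slc25a3. This is 13.2% of the carriers, beside 14.7% of all features for either direction and 8.31% for treated lower. By the probes used in the test, no carrier had all treated values above all vehicle values, where 6.39% of all features did. The gap between the groups was 0.15 for Slc25a29 and between 0.01 and 0.03 for the other 4.

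The carriers that supply oxidative phosphorylation are Slc25a4 and Slc25a5, the ADP/ATP translocases that trade cytosolic ADP for mitochondrial ATP, and Slc25a3, which brings in the phosphate. Slc25a3 (NM_139100) was at 7.27, 7.31 and 7.38 in vehicle replicates 1, 2 and 3 and at 7.19, 7.24 and 7.15 in treated replicates 1, 2 and 3. Slc25a5 (NM_057102) was at 6.61, 6.68 and 6.71 in vehicle animals and 6.49, 6.55 and 6.58 in treated animals. In both genes each treated animal was below each vehicle animal, by margins smaller than the spread within a group. Slc25a4 (NM_053515) was at 5.60, 5.71 and 5.77 in vehicle animals and 5.46, 5.60 and 5.44 in treated animals, and the groups met at 5.60.

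The log2 fold changes were -0.13 ± 0.07 (SE) for Slc25a3, -0.13 ± 0.07 for Slc25a5 and -0.19 ± 0.09 for Slc25a4, with limma adjusted p of 0.678, 0.674 and 0.616. As vehicle over treated these are 1.09-fold, 1.09-fold and 1.14-fold. All 3 stood below 0, and none passed. Their other probes stood at or below 0 as well, to different extents. The 3 probes of Slc25a4 stood at -0.19, -0.19 and -0.14, and the 2 of Slc25a3 at -0.13 and -0.11. The 4 kept probes of Slc25a5 ran from -0.13, the one used, through -0.08 and -0.04 to 0.00, so the low value of Slc25a5 rested on the probe with the highest signal. The naming table also lists 9 pseudogenes of Slc25a5, and whether its probes bind their RNA was not tested.

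The promoters of these 3 genes are shown because their 3 signals stood on the same side of 0, and that of Slc25a25 because its difference was the largest in size. That of Slc25a29 is shown because it alone had an unadjusted p under 0.05. Each window runs from 250 bases before to 50 bases after the annotated start, 5′ to 3′ on the gene's strand, from RefSeq on GRCr8. Capitals mark exact matches on either strand to the letters CCGGAAG (the ETS motif), GGGCGG (Sp1), CCAAT or TGACG, a part of the cyclic AMP response element, and to the NRF1 motif. The windows are chr7:27506578-27506877 (minus strand) for Slc25a3, chr16:52805271-52805570 (plus) for Slc25a4 and chrX:120897366-120897665 (plus) for Slc25a5. Those of Slc25a29 and Slc25a25 are chr6:133517148-133517447 (minus) and chr3:36116532-36116831 (minus).
Slc25a3: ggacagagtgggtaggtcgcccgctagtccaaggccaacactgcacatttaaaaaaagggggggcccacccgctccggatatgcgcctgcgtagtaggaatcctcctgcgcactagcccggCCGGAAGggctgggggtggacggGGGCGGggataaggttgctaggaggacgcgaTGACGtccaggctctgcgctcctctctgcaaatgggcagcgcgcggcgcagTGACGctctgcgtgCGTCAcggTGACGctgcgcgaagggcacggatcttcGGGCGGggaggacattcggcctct
Slc25a4: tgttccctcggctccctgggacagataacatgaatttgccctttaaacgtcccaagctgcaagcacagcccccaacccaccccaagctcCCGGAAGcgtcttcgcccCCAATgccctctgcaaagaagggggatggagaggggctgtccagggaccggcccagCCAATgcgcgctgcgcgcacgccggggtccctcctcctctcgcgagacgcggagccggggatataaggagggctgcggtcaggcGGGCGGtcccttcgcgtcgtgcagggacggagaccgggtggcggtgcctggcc
Slc25a5: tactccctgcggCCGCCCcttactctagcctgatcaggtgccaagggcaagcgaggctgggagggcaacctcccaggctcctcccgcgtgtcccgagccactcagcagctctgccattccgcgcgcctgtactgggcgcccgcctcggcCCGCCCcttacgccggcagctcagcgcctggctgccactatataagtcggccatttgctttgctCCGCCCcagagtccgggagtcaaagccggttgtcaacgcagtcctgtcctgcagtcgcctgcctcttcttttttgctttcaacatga
Slc25a29: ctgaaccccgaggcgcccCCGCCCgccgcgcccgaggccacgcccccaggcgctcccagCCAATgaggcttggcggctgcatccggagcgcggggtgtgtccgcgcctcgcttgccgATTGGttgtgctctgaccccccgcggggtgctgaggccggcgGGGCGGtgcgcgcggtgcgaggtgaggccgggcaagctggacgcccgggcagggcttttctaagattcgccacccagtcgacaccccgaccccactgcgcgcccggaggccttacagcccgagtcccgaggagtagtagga
Slc25a25: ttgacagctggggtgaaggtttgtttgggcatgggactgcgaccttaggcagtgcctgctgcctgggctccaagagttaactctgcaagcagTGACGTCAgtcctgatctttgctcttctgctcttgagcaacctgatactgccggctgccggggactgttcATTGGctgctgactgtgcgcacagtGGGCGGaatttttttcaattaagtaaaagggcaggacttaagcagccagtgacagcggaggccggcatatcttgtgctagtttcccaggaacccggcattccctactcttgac

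These letters differed between the 5 windows. The Sp1 letters occurred in all 5, once to 3 times each. The ETS letters occurred once each in Slc25a3 and Slc25a4 and not in the window of Slc25a5. Slc25a3 held 4 copies of TGACG. Slc25a25 held the full palindrome TGACGTCA of the cyclic AMP response element, and its 2 matches to TGACG, one on each strand, lie within that palindrome. None of the 5 held the NRF1 motif. A promoter was found for 33 of the 38 tested carriers. The Sp1 letters were in 69.7% of the 33 and 33.1% of all 33465 promoters, the ETS letters in 21.2% and 8.75%, CCAAT in 57.6% and 37.5%, TGACG in 27.3% and 21.2%, and the NRF1 motif in 3.03% and 4.26%. The full palindrome was in 6.06% and 1.83%. The carrier windows also held more G and C, with a median of 60.7% against 51.7%, and the matches are a description of letters only.

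The calcium-regulated carriers exchange ATP-magnesium for phosphate and so set the size of the adenine nucleotide pool in the matrix. Slc25a25 (NM_145677) was at 6.43, 5.73 and 6.63 in vehicle animals and 5.19, 5.52 and 6.13 in treated animals. Its groups overlapped, because vehicle replicate 2 lay below treated replicate 3. Its log2 fold change was -0.65 ± 0.32 (SE), or 1.57-fold lower in treated animals, with a limma adjusted p of 0.646 and a 95% interval from -1.43 to 0.13. Its second probe stood at -0.93 ± 0.35 with the same order of animals within the treated group. Without vehicle replicate 2 the log2 fold change was -0.92, and without treated replicate 1 it was -0.44.

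Slc25a25 was also among the most variable carriers from animal to animal. Its pooled within-group SD was 0.48, the fourth largest of the 38, where the median carrier had 0.11 and the median feature 0.14. The 3 carriers above it, Slc25a47, Slc25a27 and Ucp1, had signals below -4 on every array. The other members of the group, Slc25a23 and Slc25a24, stood at -0.08 ± 0.08 and -0.16 ± 0.17 (SE). The second probe of Slc25a23 stood at -0.28 ± 0.08, so its probes differed in size.

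**Figure D2:**
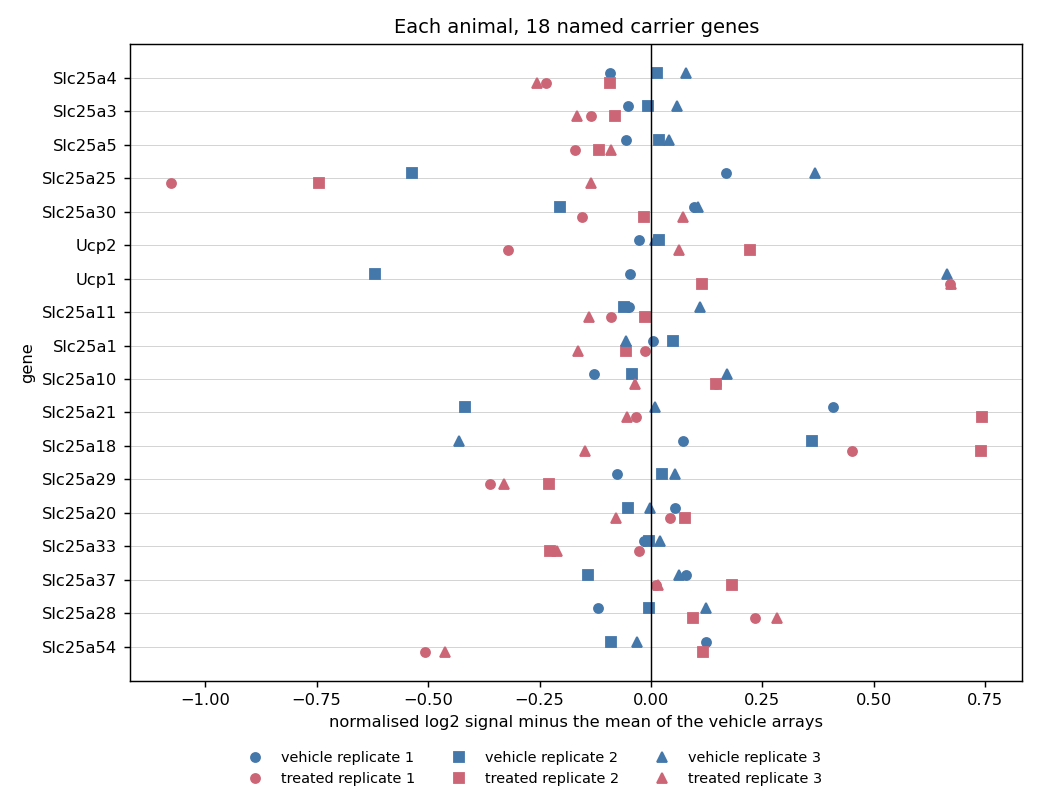
Normalised log2 signal of each animal minus the mean of the 3 vehicle animals, for 18 of the carriers described one by one, all but Slc25a22; blue symbols are vehicle and red symbols treated animals, and the symbol shape gives the replicate number. Treated points of Slc25a29, Slc25a3 and Slc25a5 all lie left of the vehicle points, while those of Slc25a25, Ucp1 and Slc25a21 spread over more than 0.5.

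Among carriers of amino acids, Slc25a29 (NM_001010958) carries the basic amino acids arginine and lysine. It was at -0.94, -0.84 and -0.81 in vehicle animals and -1.22, -1.09 and -1.19 in treated animals. Each treated animal was below each vehicle animal. The means were -0.86 ± 0.07 (SD, n = 3) and -1.17 ± 0.07 (SD, n = 3). The log2 fold change of -0.31 ± 0.08 (SE), or 1.24-fold lower in treated animals, had a 95% interval from -0.50 to -0.12 and did not pass, with a limma adjusted p of 0.479. Its other kept probe, not used in the test, stood at -0.37 ± 0.13. The value ranged from -0.35 to -0.23 over 18 other ways of processing or leaving out an array, some of which gave the same fit. The lowest limma adjusted p among them was 0.414.

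None of the rest of that group reached an unadjusted p under 0.05 in limma. Slc25a20 (NM_053965), the carnitine-acylcarnitine carrier that brings long-chain fatty acids in for oxidation, was at 3.30, 3.20 and 3.25 in vehicle animals and 3.29, 3.32 and 3.17 in treated animals. Its log2 fold change was 0.01 ± 0.08 (SE), with a 95% interval from -0.18 to 0.20. Slc25a15, the ornithine carrier, stood at -0.12 ± 0.14, and its second, dimmer probe at 0.21 ± 0.15. Slc25a44, a carrier of branched-chain amino acids, stood at 0.03 ± 0.08 and Slc25a2, a relative of the ornithine carrier, at 0.04 ± 0.18. Slc25a2 was well above background on 2 vehicle arrays and 2 treated arrays. Slc25a38, which supplies glycine for haem synthesis, stood at 0.14 ± 0.09. Slc25a47 stood at 0.18 ± 0.46 and was well above background on 2 vehicle arrays and 1 treated array.

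The glutamate carriers Slc25a22 and Slc25a18 stood on opposite sides of 0. Slc25a22 (NM_001014027) was at 2.00, 1.89 and 1.93 in vehicle animals and 1.53, 1.86 and 1.74 in treated animals. Its groups did not overlap, by 0.03, and the log2 fold change was -0.23 ± 0.10 (SE) with a limma adjusted p of 0.619. Slc25a18 (NM_001044280) was at -5.47, -5.19 and -5.98 and at -5.10, -4.80 and -5.69, and was well above background on 2 vehicle arrays and 1 treated array. Its groups overlapped, and its log2 fold change was 0.35 ± 0.29 with a limma adjusted p of 0.774.

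Carriers of citrate and dicarboxylates connect the citric acid cycle with the cytosol. Slc25a1 (NM_017307), the citrate exporter that feeds lipid synthesis, was at 2.06, 2.11 and 2.00 in vehicle animals and 2.04, 2.00 and 1.89 in treated animals. Slc25a10 (NM_133418), the malate-phosphate exchanger, was at 4.80, 4.89 and 5.10 and at 5.07, 5.07 and 4.89. Slc25a11 (NM_022398), the oxoglutarate-malate exchanger of the malate-aspartate shuttle, was at 4.95, 4.94 and 5.11 and at 4.91, 4.99 and 4.87. The groups overlapped in all 3 genes. Their log2 fold changes were -0.08 ± 0.08, 0.09 ± 0.11 and -0.08 ± 0.08 (SE), with 95% intervals from -0.27 to 0.11, from -0.18 to 0.35 and from -0.28 to 0.12.

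Slc25a21 (NM_133614) carries oxoadipate, an intermediate of lysine and tryptophan breakdown. It was at -1.99, -2.82 and -2.39 in vehicle animals and -2.43, -1.66 and -2.45 in treated animals. Treated replicate 2 was the highest of the 6, and the other 2 treated animals lay inside the vehicle range. Its log2 fold change was 0.22 ± 0.29 (SE), with a limma adjusted p of 0.868, and it was -0.04 without treated replicate 2. Its second probe stood at 0.56 ± 0.31. Slc25a34 and Slc25a35, less studied relatives, stood at -0.11 ± 0.11 and 0.05 ± 0.10.

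Among the uncoupling proteins and their relatives no groups separated. Ucp2 (NM_019354) was at -1.04, -0.995 and -1.01 in vehicle animals and -1.33, -0.79 and -0.95 in treated animals, so the vehicle animals lay inside the treated range. On average they differed by -0.01 ± 0.15 (SE, log2), and by 0.14 without treated replicate 1 and -0.13 without treated replicate 2. Slc25a30 (NM_001013187), an uncoupling protein relative found in kidney, was at 3.25, 2.95 and 3.26 and at 3.00, 3.13 and 3.22, with a log2 fold change of -0.03 ± 0.12. Slc25a14 and Slc25a27 stood at -0.08 ± 0.07 and -0.33 ± 0.41. Slc25a27 was well above background on 2 vehicle arrays and 1 treated array.

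Ucp1 (NM_012682), the uncoupling protein of brown fat, was well above background on all 6 arrays although its signal was low. It was at -5.32, -5.89 and -4.61 in vehicle animals and -4.60, -5.16 and -4.60 in treated animals. The groups overlapped, with the highest vehicle animal level with the highest treated animals. The log2 fold change was 0.49 ± 0.34 (SE), with a limma adjusted p of 0.731. It was 0.82 without vehicle replicate 3 and 0.18 without vehicle replicate 2. The 4 fat markers measured, of 6 listed, summed to 1.61 to 2.10 in vehicle animals and 2.04 to 2.17 in treated animals. Adipoq, an adipocyte hormone, stood at 0.36 ± 0.09 with a limma adjusted p of 0.479, Cidea at 0.05 ± 0.17, Cfd at -0.30 ± 0.34 and Fabp4, well above background on 4 of the 6 arrays, at 0.49 ± 1.09. The part of fat in the signal of Ucp1 was not tested.

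Carriers of iron and glutathione were all slightly above 0, and none passed. Slc25a28 (NM_001109515), mitoferrin-2, the general iron importer, was at 3.49, 3.61 and 3.74 in vehicle animals and 3.85, 3.71 and 3.90 in treated animals. Only treated replicate 2 lay inside the vehicle range. Its log2 fold change was 0.20 ± 0.10 (SE), with a limma adjusted p of 0.638, and its other 2 probes stood at 0.20 and 0.15. Slc25a37 (NM_001013996), mitoferrin-1, the iron importer best known from red cell precursors, was at -1.57, -1.79 and -1.58 and at -1.63, -1.46 and -1.63, with a log2 fold change of 0.07 ± 0.10. Slc25a39, a glutathione importer, stood at 0.05 ± 0.07. Its second, dimmer probe stood at 0.18 ± 0.07, with each treated animal above each vehicle animal. The naming table lists 8 pseudogenes of Slc25a39, and whether its probes bind their RNA was not tested. Of the 6 erythroid markers listed, 5 were measured, and all 5 had log2 fold changes above 0, beside 48.1% of all features. The 5 markers summed to 482 to 634 in vehicle animals and 615 to 756 in treated animals. Alas2, the erythroid enzyme that starts haem synthesis, stood at 0.62 ± 0.16 with a limma adjusted p of 0.479. Ahsp, Hba-a1, Hbb and Slc4a1 stood at 0.49 ± 0.25, 0.40 ± 0.14, 0.31 ± 0.14 and 0.25 ± 0.28. The part of these markers in the values of the iron carriers was not tested.

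Carriers of cofactors and nucleotides stayed within 0.16 of 0. Slc25a33 (NM_001127574), a pyrimidine nucleotide carrier, was at 0.10, 0.12 and 0.14 in vehicle animals and 0.09, -0.11 and -0.09 in treated animals. Each treated animal was below each vehicle animal, but treated replicate 1 by only 0.01. The log2 fold change was -0.15 ± 0.08 (SE), with a limma adjusted p of 0.664, and its other 2 kept probes stood at -0.02 and -0.17. Slc25a51, which brings NAD into the matrix, stood at -0.08 ± 0.09. Slc25a42, the coenzyme A carrier, stood at 0.06 ± 0.08, and Slc25a32, a folate and FAD carrier, at 0.10 ± 0.09. Slc25a16 stood at 0.12 ± 0.08 and Slc25a17, which sits in the peroxisome, at -0.03 ± 0.09.

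Of the remaining members, Slc25a54 (NM_001109640) was at -3.62, -3.84 and -3.78 in vehicle animals and -4.25, -3.63 and -4.21 in treated animals. Treated replicates 1 and 3 lay below all vehicle animals and treated replicate 2 within them. The log2 fold change was -0.28 ± 0.18 (SE), with a limma adjusted p of 0.704, and it was -0.48 without treated replicate 2. Slc25a46, a family member of the outer membrane that shapes mitochondria, stood at -0.03 ± 0.08.

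Separate probes of a gene show how far its probes agree. They read the same RNA of the same animals, so they do not measure variation between animals. Of the 38 tested carriers, 24 had more than 1 kept probe. Probes lay on both sides of 0 for 5 of these genes, among them Slc25a15, Slc25a44, Slc25a46 and Slc25a51. The probes of a gene differed by 0.35 in Slc25a44, 0.35 in Slc25a21, 0.33 in Slc25a15 and 0.27 in Slc25a25. They differed by 0.06 or less in, among others, Slc25a4, Slc25a3, Slc25a28 and Slc25a37.

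**Figure D3:**
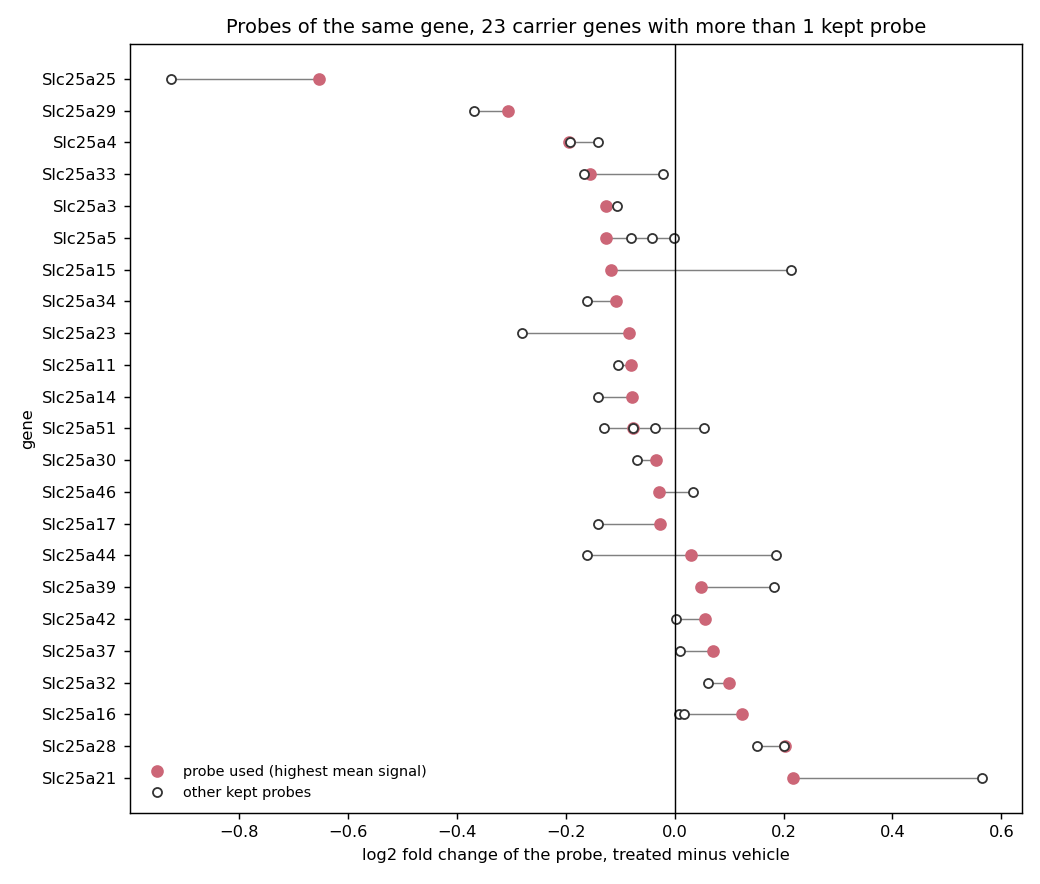
Log2 fold change of every kept probe (x axis, treated minus vehicle) for 23 of the 24 carriers with more than 1 kept probe; filled points are the probe used in the test and open points the others. The probes of Slc25a25, Slc25a29 and Slc25a4 lie on the same side of 0, those of Slc25a15 and Slc25a44 on both.

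The carriers were set beside other mitochondrial genes. Subunits of the respiratory chain and ATP synthase, which use what the carriers bring in, lay at a median of -0.04 (log2 fold change, 81 genes), with 69.1% below 0. Mitochondrial ribosomal proteins had a median of 0.03 over 66 genes, with 39.4% below 0, where the share of all features was 51.9%. At an unadjusted p under 0.05 there were 2 genes in each of these sets, or 2.47% and 3.03%, beside 2.63% of the carriers and 8.30% of all features. None of the genes in either set passed in limma. The differences between the medians were not tested.

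**Figure D4:**
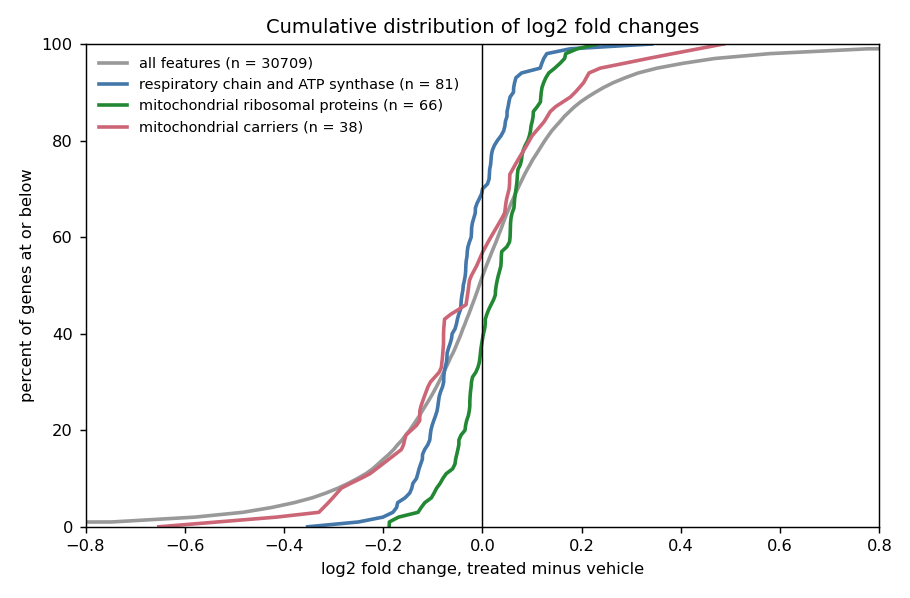
Cumulative share of genes (y axis, percent) at or below a log2 fold change (x axis, treated minus vehicle) for the 38 carriers, the 81 respiratory chain and ATP synthase genes, the 66 mitochondrial ribosomal protein genes and all 30709 features. The carrier curve runs close to that of all features, with a median of -0.03 against -0.01.

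Genes that work with the carriers came from lists of functions, and none passed in limma. A list of other mitochondrial membrane proteins had 16 measured members of 16. Of these, 2 were higher and 1 lower at an unadjusted p under 0.05, beside 3.46% and 4.84% of all features. Mcu, the pore of the calcium uniporter, stood at -0.59 ± 0.14 (SE), and its groups did not overlap. It was at -3.23, -2.92 and -3.34 in vehicle animals and -3.94, -3.68 and -3.63 in treated animals, with a limma adjusted p of 0.476. Sfxn2 and Sfxn4, members of the sideroflexin family, stood at 0.28 ± 0.10 and 0.17 ± 0.07. The pyruvate carrier subunits and both relatives Mtch1 and Mtch2 were on this list and did not reach that level.

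The route by which carriers are imported into the membrane, through Tomm70 and the Timm chaperones, had 11 measured members of 13, with a median of -0.04 and none at an unadjusted p under 0.05. The same count of 0 held for the NADH shuttles (6 of 6 measured), ATP synthase with the voltage-dependent anion channels (13 of 13), the carnitine shuttle and beta oxidation (15 of 15), mitochondrial iron, haem and iron-sulphur synthesis (8 of 9) and regulators of mitochondrial genes (14 of 14). Their medians were -0.04, -0.05, -0.01, -0.04 and -0.03. Of the 14 regulators, 7 stood above 0 and 7 below. Ppargc1a, a coactivator that drives mitochondrial gene expression, stood at -0.18 ± 0.07 (SE), with a limma adjusted p of 0.601.

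The list of citrate and cytosolic acetyl-CoA metabolism had 10 measured members, of which 2 were higher and 1 lower at an unadjusted p under 0.05. For the 3 lists described here, the share of all features at that level was 3.46% higher and 4.84% lower. Aco1, the cytosolic aconitase that doubles as an iron sensor, stood at 0.27 ± 0.08 (SE). Me1, the malic enzyme that makes NADPH, stood at 0.46 ± 0.19, and Ogdh, a subunit of the oxoglutarate dehydrogenase, at -0.26 ± 0.07. Renal amino acid and ammonia metabolism had 11 measured members of 12 and 2 lower at that level, Asl and Prodh, at -0.28 ± 0.10 and -0.28 ± 0.11. These enzymes belong to arginine synthesis and proline breakdown. Cofactor and folate enzymes had 8 measured members of 10 and 1 lower, Mthfd1l, a mitochondrial folate enzyme, at -0.69 ± 0.11. It was well above background on 3 vehicle arrays and 1 treated array. The limma adjusted p of these genes ranged from 0.386 for Mthfd1l to 0.597 for Me1.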

How the data were processed

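Renal cortex RNA was measured on 6 arrays, 3 per group, 1 per animal. The submitters' processing notes name Agilent Feature Extraction, version 10.7, as the software that read the spots. The deposited files hold intensity on a linear scale, background-subtracted and detrended within the array, per the file headers, plus other 0 or 1 flags. The authors' deposited table holds a ratio of this signal to the array's 75th percentile, as set against the scanner files. Its replicate columns matched the scanner files of other replicates of the same group, so replicates are named here by scanner file.

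Of 61657 non-control probes, 47 flagged as outliers on an array and 84 matching external controls were removed, and saturated spots numbered 0. Probes were named through RefSeq accessions (27435 of 61526, assembly GRCr8). The array design used another build, so no probe coordinates are given, and the promoter windows are RefSeq's on GRCr8. Each log2 signal had its array's 75th percentile subtracted. Probes well above background on at least 3 arrays were kept, with the brightest per gene tested in limma 3.58.1 (eBayes after lmFit, in R 4.3.3), and p-values were adjusted over the 30709 features by Benjamini-Hochberg with a threshold of 0.05. Standard errors of other probes come from the same fit over all kept probes. The fit was tested on simulated data with log2 changes larger than that of any carrier. That test does not show whether differences of the carriers' size would be found. The number of arrays limits precision. One carrier counted among the 38 is not reported here by itself.

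The members and lists were chosen with earlier results of these data known. The carriers given animal by animal were those with an unadjusted p under 0.05, the largest change in each solute group, and a fixed set of well-known carriers. From other lists, members at an unadjusted p under 0.05 were named. Slc25a22 and Ppargc1a were added after their values were seen, as were the examples from the marker lists. Over all features, same-numbered animals of the 2 groups did not deviate together from their group means (correlations of 0.0234, -0.0437 and -0.0207). Animals with different numbers had correlations from -0.0708 to 0.0879. This does not exclude a pairing by number, and the sample labels give replicate numbers only.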

Additional observations from a re-analysis of the deposited data

How the results depend on the processing

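No carrier passed over all features in limma under any of 18 alternatives, and the smallest adjusted p was 0.414. These were other background corrections, scalings, filters and probe rules, the authors' values, a variance trend, blocks, 1 slide alone and each array left out. Since treated replicate 2 was alone on its slide, slide as a block, the other slide alone and its omission gave the same fit. Over all features limma called 5 with normexp background correction, 1 with a filter of all 6 arrays, 2 with probes averaged per gene, 5 with a variance trend and robust fit, and 3 with the slide as a block or that slide alone. Leaving out 1 array gave 0 to 3. The carriers at an unadjusted p under 0.05 were 2 with normexp, 2 with quantile normalization, 4 with a trend and 4 with the slide as a block or alone. With 1 array left out there were 1 to 4, the most without treated replicate 2. Without a filter, where 41 carriers were tested, there were 2, Slc25a29 and Slc25a53. Slc25a53 had no probe well above background on any array. The count of 4 is 10.5% of the carriers. Over the 18 alternatives 6.59% to 8.94% of all features reached that level, with 8.35% for the trend and 7.40% for the slide as a block. Slc25a29 was among the carriers at that level each time. Slc25a4 was among them in 6 of the 18, some of them the same fit. With normexp Slc25a4 stood at -0.27, with a limma adjusted p of 0.452. With the replicate number as a block there were 3, Slc25a18, Slc25a29 and Slc25a25. Whether the numbers pair the animals is not known, so this block is given as an alternative only.

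With 1 array fewer, groups fail to overlap more easily: 9 to 11 carriers, or 23.7% to 28.9%, beside 23.2% to 27.2% of all features, and 10 with the slide of both groups alone. The carriers' median ranged from -0.0504 (without treated replicate 3) to -0.00697 (without vehicle replicate 2). Among the 18 carriers chosen by rule, direction turned for Slc25a21, Slc25a20, Slc25a30, Slc25a37 and Ucp2. The largest of these in size on all arrays was Slc25a21, at 0.22 ± 0.29 (SE), so it too lay within its SE of 0. With the slide as a block or alone Slc25a21 stood at -0.0442 and Slc25a20 at -0.0177, the same values as without treated replicate 2. With 1 array left out Slc25a21 ranged from -0.0442 to 0.42, Slc25a20 from -0.0177 to 0.0602, Slc25a30 from -0.13 to 0.0277, Slc25a37 from -0.000881 to 0.11 and Ucp2 from -0.13 to 0.14. The cause was not tested.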
